A study of Mus musculus with 27 samples.

Results

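The 9 genes Slpi, Scara5, Lcn2, Ltf, Cp, C3, Saa1, Saa3 and Wfdc2, which encode secreted proteins of innate defence and proteins that bind or carry iron, were followed among the 24454 genes of the table. Slpi and Scara5 were selected on their fall with TGFβ, so that their TGFβ values are given here as a description. The other 7 were added by name, to see whether they fell too, in which lines and by how much. RNA-sequencing had been done on 27 libraries from 9 tumour cell lines, each grown without cytokine, with Wnt3a for 3 days at 100 ng/ml, or with TGFβ for 4 days at 2 ng/ml. Untreated libraries are labelled 4 days, so Wnt3a comparisons also differ in the labelled day, although plating and RNA isolation were stated to be simultaneous for the 3 treatments. All lines came from FVB/N mice with the MMTV-PyMT transgene, in which the MMTV promoter drives polyoma middle T in mammary epithelium. Bcl9 and Bcl9L are adaptors of the Wnt pathway, which bind Pygopus through their HD1 domain and β-catenin through their HD2 domain. ΔHD1/fl and ΔHD2/fl lines carried alleles of both genes without that domain beside floxed wild-type alleles (2 lines each). ΔHD1/- (2 lines) and ΔHD2/- (3 lines) had lost the floxed alleles after infection with an adenovirus that expresses Cre and GFP, and GFP-positive cells had been sorted. Contaminating fibroblasts had been removed by differential trypsinisation. Whether a recombined line derived from the fl line of the same number is not given by the labels.

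Epithelia such as the mammary gland secrete proteins that limit microbes and tissue damage. SLPI inhibits serine proteases of leukocytes, lipocalin-2 (Lcn2) captures bacterial siderophores, lactoferrin (Ltf) binds iron in milk and mucosal fluids, and ceruloplasmin (Cp) is a copper-carrying ferroxidase. C3 is the central component of complement, Saa1 and Saa3 are acute phase apolipoproteins, Wfdc2 is a small secreted protein with WAP domains like those of SLPI, and SCARA5 is a membrane scavenger receptor that takes up ferritin. Many such genes are known to be switched on by NF-kB and C/EBP factors in inflammation, and TGFβ is known to drive mammary epithelial cells towards a mesenchymal state.

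Values are CPM, the reads of a gene per 1000000 reads assigned to genes, and are compared between samples but not between genes. Libraries held 21.86 to 33.69 M reads (1 M is 1000000 reads), and a floor of 3 reads, which a count of 0 could hide, stood for 0.089 to 0.137 CPM. In 2 lines the level of Cdh1 went against the label of an epithelial tumour line. ΔHD1/fl line 2 and ΔHD1/- line 2 had 0.522 and 0.237 CPM of Cdh1 (E-cadherin) without cytokine, against 606 to 1145 CPM in the other 7 lines. Their summed level of 7 fibroblast markers was 1886 and 5993 CPM, against 1.05 to 42.9 CPM elsewhere, although Lum stayed at or under 3 reads in all libraries. Other epithelial markers set these lines apart from each other: 7 luminal markers summed to 1.34 CPM in ΔHD1/fl line 2 but to 1091 CPM in ΔHD1/- line 2 (2744 to 5075 CPM in the other 7 lines), and 5 basal markers to 538 and 303 CPM (1145 to 17023 CPM in the other 7). Summed leukocyte markers stayed within 31.1 to 235 CPM with Adgre1 at or under 3 reads, and neutrophil markers reached at most 1.52 CPM with Elane and Retnlg at or under 3 reads. ΔHD2/- lines 2 and 3 resembled each other closely, and results were recomputed with both averaged. The treatments were visible in their known targets: with TGFβ, Fn1 rose by 1.90 ± 0.32 log2 units (SE; limma adjusted p 0.000773), and with Wnt3a, Axin2 rose by 4.22 ± 0.19 (SE; limma adjusted p 7.26e-10), each in 9 of 9 lines.

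Promoters are shown for Slpi, for Lcn2 and C3, which were lower with TGFβ in 9 of 9 lines, and for Ltf, which was lower with TGFβ in 8 of 9 lines and higher with Wnt3a in 7 of 9. Lcn2 fell from only 1 read to 0 in ΔHD1/- line 2, and Ltf did so in ΔHD1/fl line 2. Each is the 250 bases before the first listed transcription start (RefSeq, GRCm38.p6), read 5′ to 3′ along the gene, at chr2:164356508-164356757 (minus strand), chr2:32387740-32387989 (minus), chr17:57228137-57228386 (minus) and chr9:111019042-111019291 (plus). Capitals mark matches to the C/EBP half-site pair TTGCNNAA and to the E-box CAGGTG, on either strand.
Slpi: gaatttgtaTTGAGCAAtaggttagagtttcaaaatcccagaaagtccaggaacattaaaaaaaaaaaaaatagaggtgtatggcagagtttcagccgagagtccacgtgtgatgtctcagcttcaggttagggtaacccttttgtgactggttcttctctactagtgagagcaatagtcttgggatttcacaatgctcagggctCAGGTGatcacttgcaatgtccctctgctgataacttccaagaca
Lcn2: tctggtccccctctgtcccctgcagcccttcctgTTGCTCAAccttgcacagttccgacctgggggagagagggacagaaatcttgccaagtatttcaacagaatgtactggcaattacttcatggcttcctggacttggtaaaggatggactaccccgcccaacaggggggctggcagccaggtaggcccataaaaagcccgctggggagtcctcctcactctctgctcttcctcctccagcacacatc
C3: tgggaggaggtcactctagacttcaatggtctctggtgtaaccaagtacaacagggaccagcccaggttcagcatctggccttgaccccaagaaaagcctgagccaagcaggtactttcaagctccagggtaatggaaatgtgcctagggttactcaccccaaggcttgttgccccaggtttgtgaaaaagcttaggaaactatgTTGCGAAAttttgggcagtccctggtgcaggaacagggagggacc
Ltf: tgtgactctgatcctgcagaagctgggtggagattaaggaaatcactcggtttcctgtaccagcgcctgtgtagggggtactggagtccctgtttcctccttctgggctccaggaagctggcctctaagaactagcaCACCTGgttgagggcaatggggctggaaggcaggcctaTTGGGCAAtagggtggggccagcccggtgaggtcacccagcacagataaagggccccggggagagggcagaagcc

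Of the 9 genes, 8 had an entry in the promoter table (Scara5 is the remaining one). A C/EBP match lay in the first listed window of 6 of these 8 genes (Slpi, Lcn2, C3, Ltf, Saa1 and Saa3) and in the second window of Cp, ending 63 bases before that start, while 9.55% of 27025 promoters of the same length, 1 per gene, held one. In C3 it ended 38 bases before the start, in Ltf 68, in Lcn2 209 and in Slpi 234. The E-box, a sequence bound by Snail and Zeb repressors, was found in the first window of 4 of 8 (Slpi, Ltf, Saa1 and Wfdc2), against 17.1% of all promoters. The palindromic Smad box GTCTAGAC was in 0 of 8 (0.174% of all). The motifs did not overlap one another in these windows and were chosen after the sequences had been seen. A match describes letters in this window, and binding was not measured.

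With TGFβ most of these genes were lower, but not to the same degree in each line. Slpi and Scara5 were lower in 9 of 9 lines by the way they were chosen, and of the other members Lcn2 and C3 were also lower in 9 of 9, and Cp and Wfdc2 in 8 of 9. These counts include Lcn2 in ΔHD1/- line 2, from 1 read to 0, and Cp in ΔHD1/fl line 1, lower by 1.01-fold. The share of all genes lower in as many lines was not counted. In the mean response over genotypes, tested by limma on log2(CPM + 1) across 13270 genes and called at an adjusted p of at most 0.05 with a log2 fold change of at least 1 either way, 3 of the 7 other members fell: C3, Lcn2 and Cp. Among all genes tested, 3.56% were called lower. With cell line as a replicate block, 4 of the 7 were called lower (Wfdc2 as well), against 5.90% of all genes, and edgeR on recovered reads called 4 (Ltf instead of Wfdc2), against 3.76% of all genes. Where 1 of the 2 lines of a genotype was left out, the remaining line was assumed to vary like the other groups. In bulk RNA, fewer cells of a type and less RNA per cell cannot be told apart.

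**Figure D1:**
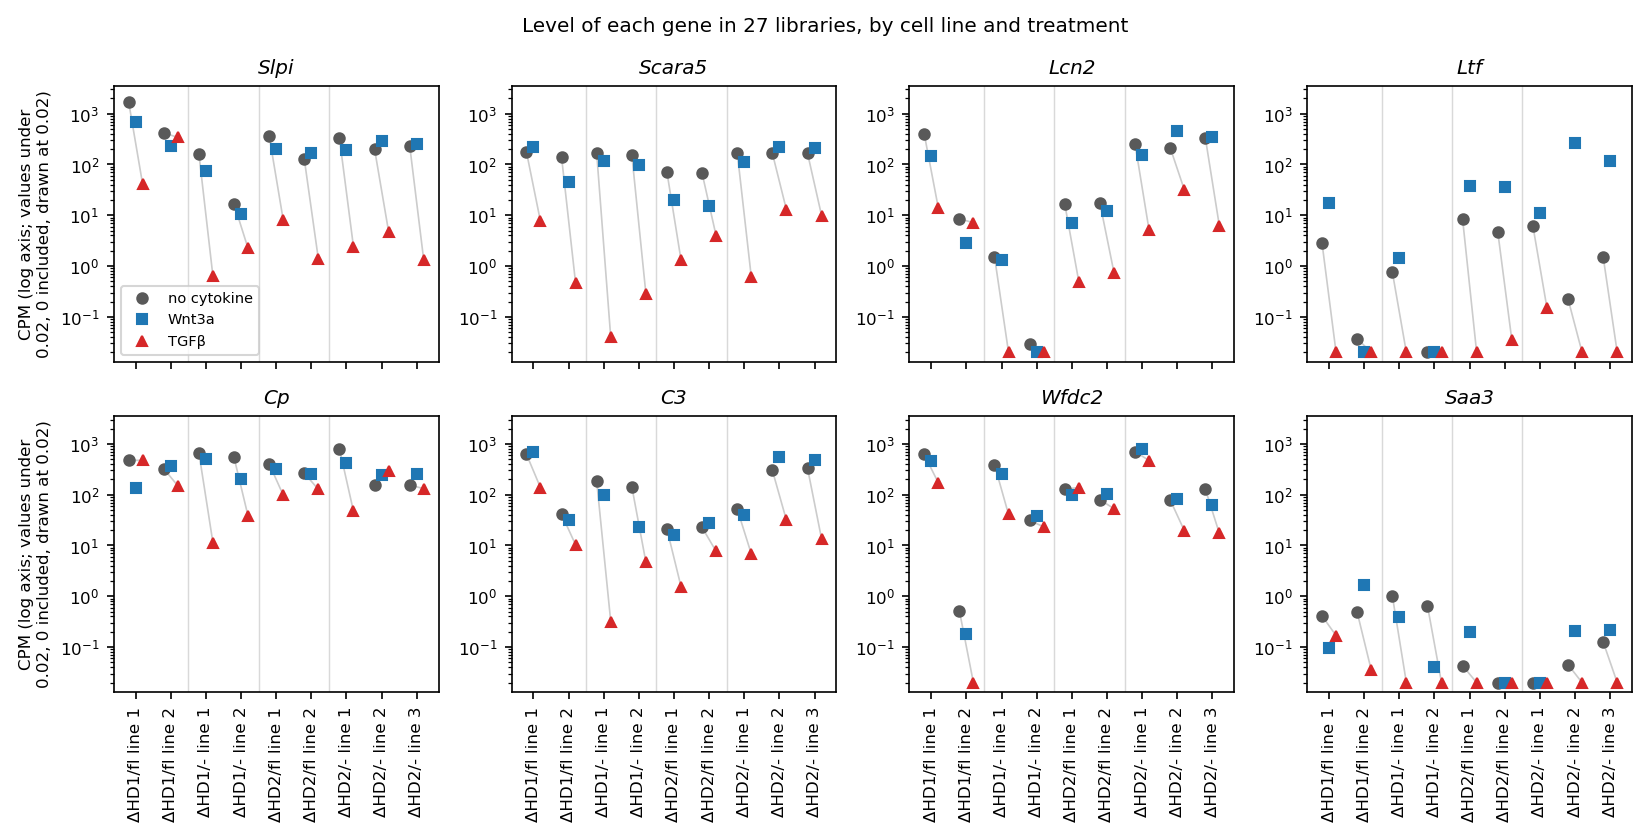
Level in CPM (log axis) of 8 of the genes in each of the 9 cell lines without cytokine (grey circles), with Wnt3a (blue squares) and with TGFβ (red triangles), 1 point per library; values under 0.02 CPM are drawn at 0.02, grey segments join the untreated and TGFβ points of a line, and vertical lines separate genotypes. Scara5 with TGFβ lay below all untreated values in each line, while Slpi and Lcn2 of ΔHD1/fl line 2 and Cp of ΔHD1/fl line 1 hardly moved.

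In the values by line below, the order is ΔHD1/fl lines 1 and 2, ΔHD1/- lines 1 and 2, ΔHD2/fl lines 1 and 2, and ΔHD2/- lines 1, 2 and 3. There is 1 library per line and treatment, so that the spread within a line is unknown and the spread within a group is that between lines.

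Slpi (Entrez 20568, GRCm38 chromosome 2, 164354070 to 164356507, overlapping Mir7678) is the leukocyte protease inhibitor. Without cytokine it was at 1730, 420, 164, 16.8, 367, 127, 330, 199 and 231 CPM, and with TGFβ at 41.0, 341, 0.635, 2.23, 8.13, 1.38, 2.38, 4.73 and 1.29 CPM. All lines were lower, 7 of them by 42.0- to 259-fold, ΔHD1/- line 2 by 7.51-fold and ΔHD1/fl line 2 by only 1.23-fold. The untreated and treated levels overlapped, since ΔHD1/fl lines 1 and 2 with TGFβ lay above ΔHD1/- line 2 without cytokine. On average the change was -4.77 ± 0.54 log2 units (SE).

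Scara5 (Entrez 71145, chromosome 14, 65666403 to 65764826) encodes the ferritin receptor. Its untreated levels were 179, 141, 166, 155, 70.0, 67.0, 169, 165 and 165 CPM, and with TGFβ it was at 7.65, 0.462, 0.0397, 0.288, 1.32, 3.91, 0.605, 12.8 and 9.84 CPM. No treated library reached the lowest untreated one. The falls ranged from 12.9-fold in ΔHD2/- line 2 to 537-fold in ΔHD1/- line 2, and in ΔHD1/- line 1 the reads went from 3891 to 1. In ΔHD1/fl line 2, in which Slpi hardly moved, Scara5 was 306-fold lower. On average the change was -5.43 ± 0.42 log2 units (SE).

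C3 (Entrez 12266, chromosome 17, 57203967 to 57228136, overlapping Mir6978), the complement component, was at 629, 41.5, 184, 143, 20.9, 22.6, 51.9, 299 and 330 CPM without cytokine. With TGFβ it was at 138, 10.3, 0.318, 4.72, 1.55, 7.63, 6.81, 31.3 and 13.4 CPM. All 9 lines were lower, by 2.96-fold (ΔHD2/fl line 2) to 578-fold (ΔHD1/- line 1), although the levels of the groups overlapped because the lines differed widely at the start. On average the change was -3.43 ± 0.78 log2 units (SE; limma adjusted p 0.00672, 2.06e-05 with the block). It was not called without ΔHD2/fl line 1 (limma adjusted p 0.0518), the highest of its alternatives.

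Lcn2 (Entrez 16819, chromosome 2, 32384637 to 32387739), the siderophore-binding lipocalin, was at 401, 8.54, 1.54, 0.0297, 16.5, 17.3, 252, 213 and 332 CPM without cytokine. With TGFβ it was at 14.1, 7.14, 0, 0, 0.491, 0.746, 5.03, 32.0 and 6.09 CPM. Falls of 6.65- to 54.6-fold were seen in 6 lines and of at least 12.9-fold in ΔHD1/- line 1 (from 36 reads to 0, set at 3 reads per library), while ΔHD1/fl line 2 changed by 1.20-fold and ΔHD1/- line 2 held 1 read before and 0 after. On average the change was -2.80 ± 0.69 log2 units (SE; limma adjusted p 0.0109, 0.000262 with the block), and in edgeR it was -5.03 (adjusted p 0.00765). Without ΔHD1/- line 1, or without either ΔHD2/fl line, it was not called (limma adjusted p 0.0528, 0.0596 and 0.0587), and the lowest value over its alternatives was 0.000102.

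Cp (Entrez 12870, chromosome 3, 19956933 to 20009750, overlapping Hps3), the ferroxidase, was at 476, 325, 674, 543, 406, 265, 799, 154 and 155 CPM without cytokine and at 472, 150, 11.4, 37.9, 98.1, 127, 47.0, 290 and 131 CPM with TGFβ. The lines split: ΔHD1/- lines 1 and 2 and ΔHD2/- line 1 fell 59.3-, 14.3- and 17.0-fold, ΔHD1/fl line 2 and both ΔHD2/fl lines 2.09- to 4.14-fold, ΔHD1/fl line 1 and ΔHD2/- line 3 were 1.01- and 1.19-fold lower, and ΔHD2/- line 2 was 1.88-fold higher. On average the change was -2.01 ± 0.41 log2 units (SE; limma adjusted p 0.00331, 0.00416 with the block, 0.00312 to 0.0346 over its alternatives).

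Wfdc2 (Entrez 67701, chromosome 2, 164562715 to 164568510), the WAP domain protein, was at 618, 0.522, 389, 31.0, 129, 79.6, 705, 78.5 and 128 CPM without cytokine and at 172, 0, 40.8, 23.3, 138, 53.0, 468, 19.7 and 17.2 CPM with TGFβ. It was lower in 8 of 9 lines (1.33- to 9.54-fold in those with reads under both conditions), and 1.07-fold higher in ΔHD2/fl line 1. Its mean change of -1.26 ± 1.37 log2 units (SE) was not called without a block (limma adjusted p 0.569) and was called when each line was compared with itself (SE 0.29, limma adjusted p 0.00362). The highest adjusted p over its alternatives was 0.766.

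Ltf (Entrez 17002, chromosome 9, 111019292 to 111042766), the iron-binding lactoferrin, was low without cytokine, at 2.84, 0.0373, 0.770, 0, 8.36, 4.74, 6.16, 0.225 and 1.51 CPM. With TGFβ it had 0 reads in 7 lines, 1 read in ΔHD2/fl line 2 and 4 reads in ΔHD2/- line 1. It was lower in 8 of 9 lines, in ΔHD1/fl line 2 from a single read, and ΔHD1/- line 2 had 0 reads throughout. Bounds set at 3 reads per library were at least 2.03- to 73.7-fold lower in the 5 lines that went to 0 from more than 3 reads. On average the change was -1.42 ± 0.60 log2 units (SE) and did not pass (limma adjusted p 0.112, 0.0627 with the block), but it passed with a pseudocount of 0.1 (-3.36, limma adjusted p 0.0281; 4.69% of all genes called lower) and in edgeR (-6.93, adjusted p 0.0177). Fitted changes of a gene at 0 reads depend on the added count and are no bounds.

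The serum amyloid genes were at the edge of detection. Saa3 (Entrez 20210, chromosome 7, 46711998 to 46719615, overlapping Gm31882) reached 1 CPM in only 2 libraries. It was at most 1.03 CPM without cytokine and at most 0.168 CPM with TGFβ, lower in 7 of 9 lines, with a mean change of -0.34 ± 0.14 log2 units (SE; limma adjusted p 0.101, 0.0366 with the block), under the size limit of a call on this scale. The size depended on the pseudocount: with 0.1 in place of 1 the change was -1.39 and was called (limma adjusted p 0.0378), and in edgeR it was -3.84 and was not (adjusted p 0.0531). The 4 ΔHD1 lines held 9, 13, 24 and 22 reads before and 4, 1, 0 and 0 after. The remaining lower lines, ΔHD2/fl line 1 and ΔHD2/- lines 2 and 3, held 1, 1 and 3 reads before, not above the floor, and 0 after. Saa1 (Entrez 20208, chromosome 7, 46740497 to 46743181) had at most 2 reads in any library and was left out by the filter. Only reads with 1 hit were kept, so reads that fit it and its near copy Saa2 equally were dropped. Without the filter its mean change was -0.02 (limma adjusted p 0.393), not called.

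**Figure D2:**
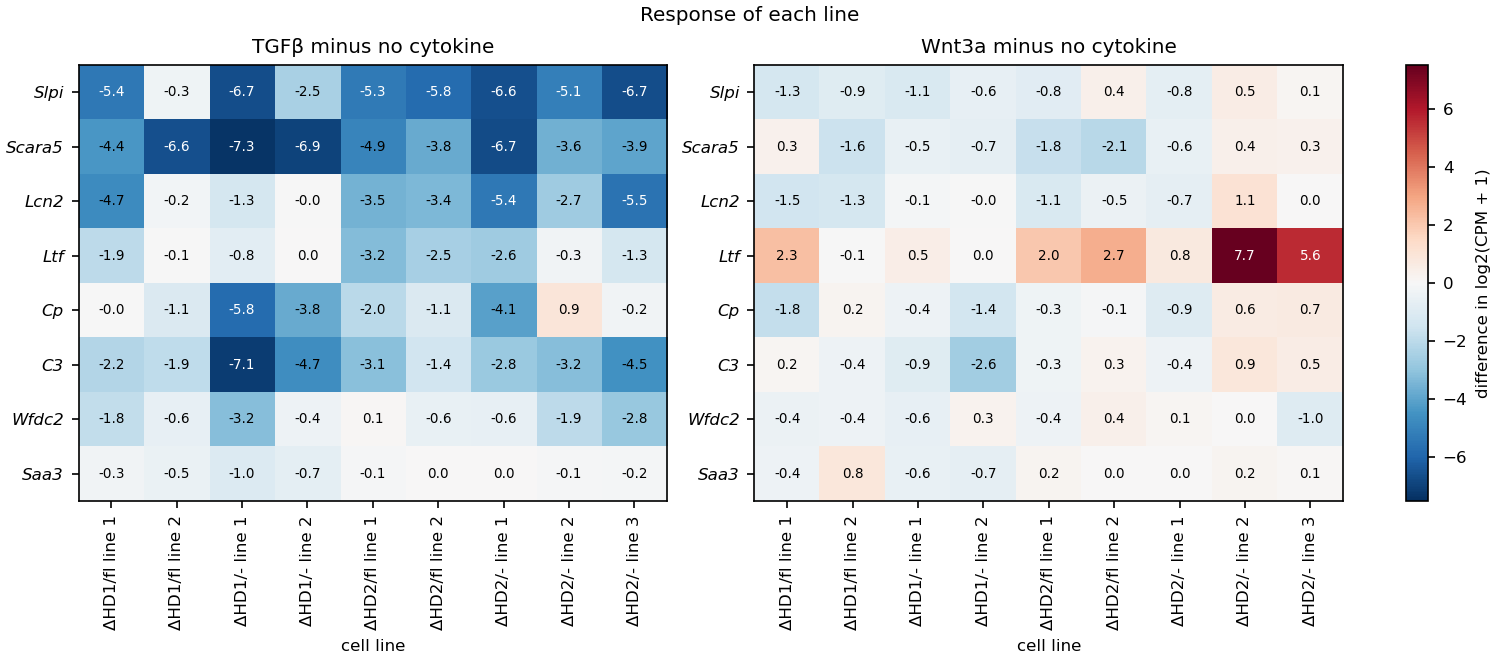
Difference in log2(CPM + 1) from the untreated library of the same line, for TGFβ (left) and Wnt3a (right), with genes in rows and the 9 cell lines in columns; blue is lower, red is higher. With TGFβ, Scara5 was below -3.5 in each line, while Slpi ranged from -0.30 to -6.66 and Cp from 0.91 to -5.77; with Wnt3a, Ltf reached 7.74 in ΔHD2/- line 2.

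Split by genotype, the responses of the 7 other members gave fewer calls, with 2 or 3 lines in each group. In ΔHD1/fl lines 0 of 7 were called (0 at an unadjusted p under 0.05, 0 in edgeR), with 0.0678% of all genes called lower. In ΔHD1/- lines 1 was called (3 at an unadjusted p under 0.05, 0 in edgeR), with 1.12% of all genes called lower. This was Cp, with a change of -4.79 ± 0.86 log2 units (SE; limma adjusted p 0.0102). Cp was not called without ΔHD1/- line 1 or line 2 (limma adjusted p 0.244 and 0.0681) or in edgeR (adjusted p 0.0547). In ΔHD2/fl lines 0 of 7 were called (2 at an unadjusted p under 0.05, 0 in edgeR; 0.203% of all genes), and in ΔHD2/- lines also 0 of 7 (2 at an unadjusted p under 0.05, 0 in edgeR; 0.445% of all genes).

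With cell line as a block more of them passed, as did more genes in general. C3 joined Cp in ΔHD1/- lines, with a change of -5.89 ± 0.78 log2 units (SE; limma adjusted p 0.000506), where 6.84% of all genes were called lower. Lcn2 passed in ΔHD2/fl lines (-3.47 ± 0.90 SE, limma adjusted p 0.0315), where 3.44% were called lower. In ΔHD2/- lines Lcn2 (-4.55 ± 0.74 SE, limma adjusted p 0.00179), C3 (-3.50 ± 0.63 SE, limma adjusted p 0.00339) and Wfdc2 (-1.78 ± 0.49 SE, limma adjusted p 0.0297) passed, where 3.78% were called lower. In ΔHD1/fl lines 0 of 7 passed with the block as well, with 3.07% of all genes called lower. Without line 2, which is low in Cdh1, Lcn2 had a log2 fold change of -4.73 in ΔHD1/fl (limma adjusted p 0.0347, with 1 line assumed to vary like the other groups).

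For Slpi, the log2 fold changes were -2.83, -4.56, -5.54 and -6.13 in ΔHD1/fl, ΔHD1/-, ΔHD2/fl and ΔHD2/- lines, with SEs of 1.12, 1.12, 1.12 and 0.92. For Scara5 they were -5.49, -7.12, -4.36 and -4.75, with SEs of 0.88, 0.88, 0.88 and 0.72. To ask whether loss of the remaining wild-type alleles changed the response, the TGFβ response with and without the floxed alleles was compared directly. None of the 9 genes was called in either family (1 and 0 at an unadjusted p under 0.05, 0 in edgeR), with 0.00754% of all genes called for ΔHD1 and 0.0301% for ΔHD2. The gene at an unadjusted p under 0.05 was Cp, whose response was lower in ΔHD1/- than in ΔHD1/fl lines, with a difference of -4.23 ± 1.22 log2 units (SE; limma unadjusted p 0.00289, adjusted p 1, 0.529 with the block). The SE of these differences ranged from 0.38 (Saa3) to 4.05 log2 units (Wfdc2), and with the block from 0.33 (Saa3) to 1.73 (Ltf). With the block 0 of the 9 were called in either family. Among all 13270 genes tested, 3 were then called for ΔHD1 and 13 for ΔHD2.

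When the 2 lines low in Cdh1 were left out, a comparison added after the data had been seen, the mean TGFβ response again called 3 of the 7 (C3, Lcn2 and Cp), with log2 fold changes of -3.77, -3.52 and -2.12, while 5.59% of all genes were called lower. Slpi then fell by 5.92 and Scara5 by 5.21 on the log2 scale. Summed marker levels differed with TGFβ as well: basal epithelial markers were lower in 8 of 9 lines, leukocyte markers in 6 of 9, milk genes in 4 of 9, luminal markers in 3 of 9 and fibroblast markers in 2 of 9. In untreated lines these sums ranged from 303 to 17023 CPM (5 basal markers), 35.4 to 235 CPM (6 leukocyte markers) and 1.34 to 5075 CPM (7 luminal markers), and with TGFβ from 88.4 to 3245, 38.7 to 131 and 5.79 to 6640 CPM. Cdh1 itself was lower with TGFβ in 8 of 9 lines, by 191-fold in ΔHD1/- line 1, the line with the largest falls of C3, Cp and Slpi, by 4.10-fold in ΔHD1/fl line 1 and by 1.29- to 1.85-fold in ΔHD2 lines. Its mean change of -1.53 log2 units was called with the block (limma adjusted p 0.0481) and not without it (limma adjusted p 0.552). The part of these markers in the falls of the secretory genes was not tested. The median of all genes tested was at -0.16 in the mean TGFβ response (-0.02 after median-of-ratios scaling), with Fn1 alone taking 1.26 to 4.69% of reads in TGFβ libraries. The falls of C3, Lcn2 and Cp were called under both scalings.

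Wnt3a, the ligand of canonical Wnt signalling, left these genes without a call. None of the 9 was called (1 at an unadjusted p under 0.05, 0 in edgeR), with 0.0226% of all genes called in either direction, and none with the block, with 0.241% of all genes called. Untreated libraries are shared with the TGFβ comparison, so values are given side by side. Slpi was at 683, 227, 74.7, 10.6, 206, 167, 196, 288 and 252 CPM with Wnt3a, lower in 6 of 9 lines by 1.58- to 2.53-fold, with a change of -0.56 ± 0.54 log2 units (SE; limma adjusted p 1) against -4.77 with TGFβ. Scara5 was at 223, 45.1, 115, 98.5, 20.2, 14.9, 114, 218 and 209 CPM, lower in 6 of 9 lines by 1.45- to 4.51-fold, most in the ΔHD2/fl lines, with a change of -0.78 ± 0.42 log2 units (SE; limma adjusted p 1). For Lcn2, Cp, C3 and Wfdc2 the log2 fold changes were -0.53, -0.44, -0.39 and -0.21, and each gene was higher in 2 to 4 of 9 lines.

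Lcn2 with Wnt3a was at 145, 2.88, 1.29, 0, 7.05, 12.3, 157, 448 and 341 CPM, and C3 at 705, 31.2, 98.6, 22.7, 16.2, 27.6, 38.9, 544 and 480 CPM. Both were higher than without cytokine in ΔHD2/- lines 2 and 3, by 2.11- and 1.03-fold for Lcn2 and 1.82- and 1.45-fold for C3, and C3 was 6.31-fold lower in ΔHD1/- line 2. Cp was at 138, 374, 511, 206, 323, 254, 413, 240 and 251 CPM. It was 3.45-fold lower in ΔHD1/fl line 1, the line in which TGFβ left it at 472 CPM, and 1.56- and 1.62-fold higher in ΔHD2/- lines 2 and 3. Wfdc2 was at 457, 0.178, 251, 38, 98.6, 104, 778, 80.6 and 64.0 CPM, within 1.99-fold of the untreated level except in ΔHD1/fl line 2, with 14 and 5 reads. Saa3 was at 1.63 CPM or less in all lines with Wnt3a, and its highest value was in ΔHD1/fl line 2 (46 reads, against 13 without cytokine).

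Ltf went the other way. With Wnt3a it was at 17.6, 0, 1.47, 0, 37.4, 36.3, 11.1, 261 and 119 CPM, higher in 7 of 9 lines, and the remaining 2 were the lines low in Cdh1, with at most 1 read each. In 5 lines it was 1.80- to 7.67-fold higher, but in ΔHD2/- line 3 it was 78.7-fold higher and in ΔHD2/- line 2 1157-fold, from 5 reads to 6279. Its mean change of 2.10 ± 0.60 log2 units (SE) was not called (limma adjusted p 0.543, 0.127 with the block, 0.0621 to 1 over its alternatives). ΔHD2/- lines 2 and 3 resemble each other, so the largest rises were in lines not shown to be independent. Summed milk genes, of which Csn2, Wap and Lalba stayed at or under 3 reads, were at 4.10 and 4.06 CPM in these 2 lines without cytokine and at 9.79 and 9.55 CPM with Wnt3a, and their part in the Ltf levels was not tested.

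Without cytokine, Lcn2 was lower in ΔHD1/- and higher in ΔHD2/- lines than in their fl lines, and neither difference passed. In ΔHD1 lines it was at 401 and 8.54 CPM with the floxed alleles and at 1.54 and 0.0297 CPM without them, a log2 difference of -5.26 ± 1.44 (SE; limma adjusted p 0.423). In ΔHD2 lines it was at 16.5 and 17.3 CPM with and at 252, 213 and 332 CPM without them, a log2 difference of 3.87 ± 1.32 (SE; limma adjusted p 0.364). The groups did not overlap in either family. The share of all genes without overlap was not counted, so this and the same remark for Slpi describe these lines only. None of the 9 genes was called in ΔHD1 lines (2 at an unadjusted p under 0.05, 0 in edgeR; 0.0678% of all genes called) or in ΔHD2 lines (1 at an unadjusted p under 0.05, 0 in edgeR; 0.550% of all genes called). The Lcn2 calls depended on single lines, with adjusted p of 0.000274 for ΔHD1 without ΔHD1/fl line 2, and of 0.00984 and 0.00942 for ΔHD2 without ΔHD1/fl line 1 or line 2 (limma). The first of these values rests on 1 ΔHD1/fl line. Without both lines low in Cdh1, Lcn2 was called in both families, with log2 differences of -7.31 in ΔHD1 (limma adjusted p 0.00506, 1 line against 1) and 3.87 in ΔHD2 lines (limma adjusted p 0.0135). Slpi was also lower in ΔHD1/- than in ΔHD1/fl lines, by 3.98 ± 1.12 (SE) on the log2 scale (limma adjusted p 0.461, and 0.0319 without ΔHD1/- line 1, which leaves 1 ΔHD1/- line), with no overlap, whereas in ΔHD2 lines the difference was 0.19 ± 1.03 (SE).

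C3 was at 51.9, 299 and 330 CPM in ΔHD2/- and at 20.9 and 22.6 CPM in ΔHD2/fl lines (log2 difference 2.93 ± 1.49 SE, limma adjusted p 0.621). Scara5 was at 165 to 169 CPM in ΔHD2/- and at 67.0 and 70.0 CPM in ΔHD2/fl lines (1.27 ± 0.80 SE, limma adjusted p 0.696). Both were higher in each ΔHD2/- line than in each ΔHD2/fl line, and neither passed. How many of all genes were ordered in this way was not counted. Cp, Wfdc2 and Saa3 overlapped between genotypes in ΔHD2 lines, with log2 differences of -0.30, 0.92 and 0.05. Ltf overlapped as well, with a log2 difference of -1.39. In ΔHD1 lines the log2 differences of the genes other than Lcn2 and Slpi ranged from -0.58 (Ltf) to 1.86 (Wfdc2), and none passed. The direction of Wfdc2 turned in edgeR (-0.49), without the 2 lines low in Cdh1 (-0.67) and without ΔHD1/fl line 2 (-2.47), and that of Ltf without ΔHD1/fl line 1 (0.36).

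The lines also differed in which of these genes they expressed. Without cytokine, the order of Lcn2 by group mean was ΔHD2/- (265 ± 61.0 CPM, SD, n = 3), ΔHD1/fl (205 ± 278 CPM, SD, n = 2), ΔHD2/fl (16.9 ± 0.53 CPM, SD, n = 2) and ΔHD1/- (0.78 ± 1.07 CPM, SD, n = 2). The first and second did not differ beyond the spread between lines. ΔHD1/fl line 1 held the highest untreated Slpi, Lcn2 and C3 of all lines, and ΔHD1/fl line 2 the lowest Wfdc2. The 2 lines low in Cdh1 were the lowest in Ltf and Wfdc2, whereas their Scara5 and Cp lay within the range of the other lines.

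Over the 27 libraries, which share lines and treatments, the level of C3 followed Scara5 most closely among these genes (Pearson r 0.83 on log2(CPM + 1)). Scara5 had r 0.70 with Cp and 0.69 with Slpi, and Lcn2 had r 0.70 with C3 and 0.66 with Slpi. Wfdc2 had r of at most 0.36 with any of the others, and Saa3 ranged from -0.27 to 0.46. Over the TGFβ responses of the 9 lines, Slpi had r -0.33 with Scara5 and 0.74 with Lcn2, Scara5 had 0.45 with C3 and 0.86 with Cp, and Lcn2 had -0.25 with C3. These are descriptions, since libraries of 1 line are not independent and Slpi and Scara5 were chosen for a shared fall.

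**Figure D3:**
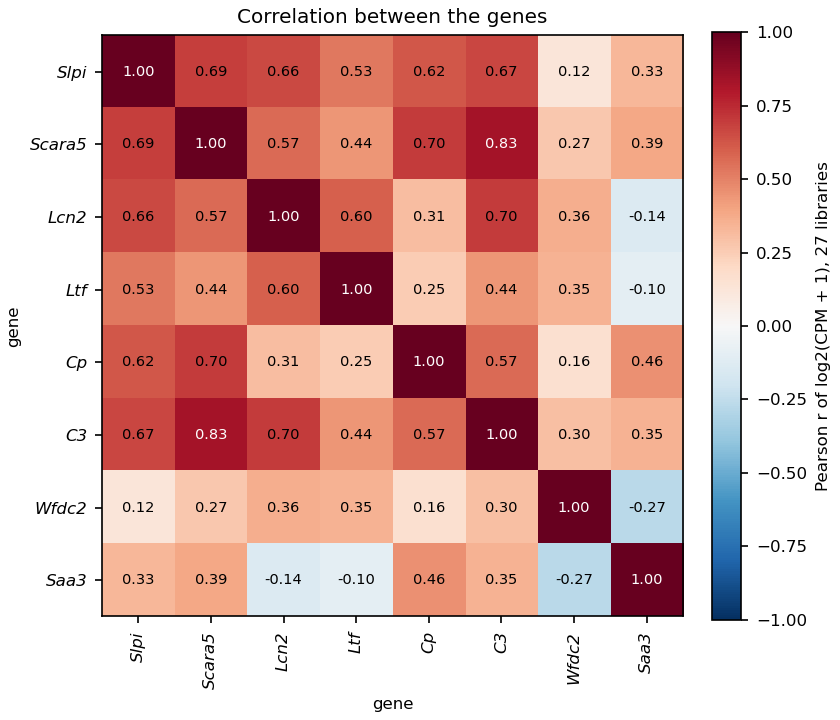
Pearson correlation of log2(CPM + 1) over the 27 libraries between 8 of the genes (Saa1 left out, at most 2 reads). C3 and Scara5 had the highest value (0.83), and Wfdc2 and Saa3 the lowest ones with the rest.

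The 3 genes most like each member over the 27 libraries were named. For Slpi these were Cebpb (r 0.91), which encodes the transcription factor C/EBPβ, Acaa2 (0.90), a mitochondrial thiolase, and Fech (0.86), which inserts iron into haem. For Scara5 they were Sybu (0.95), Lamtor1 (0.93) and Arrdc3 (0.93), for C3 Chfr (0.92), Tmco6 (0.91) and Tpra1 (0.90), and for Cp Akap7 (0.81), Socs5 (0.81) and Adam17 (0.79). For Lcn2 they were Abhd11, Trpm4 and Pdzd7 (each 0.90), for Wfdc2 Slc25a13 (0.90), Fzd9 (0.84) and Lratd2 (0.83), for Ltf Cyp3a13 (0.90), Hebp2 (0.90) and Sprr1a (0.89), and for Saa3 Spdya (0.81), Trim30a (0.81) and Ifit3 (0.80). No gene was named for more than 1 member.

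Cebpb is also part of a list of signalling genes and epithelial factors. Its values are a description, since it was the gene most correlated with Slpi, which was selected on its fall. It was at 36.3 to 142 CPM without cytokine (median 61.2) and at 9.37 to 41.0 CPM with TGFβ (median 12.3), lower in 9 of 9 lines, with a change of -1.93 ± 0.16 log2 units (SE). Of the 30 genes of this list 26 were tested, and 8 including Cebpb fell and 0 rose, against 3.56% lower and 1.86% higher among all genes (11 fell and 1 rose with the block, against 5.90% and 3.02%). The split of all genes depended on scaling, with 472 lower and 247 higher here but 316 lower (2.38%) and 318 higher (2.40%) after median-of-ratios scaling, under which 8 signalling genes and 5 secreted defence genes were called lower. Il1rn, the IL-1 receptor antagonist (-2.84 ± 0.35 SE, limma adjusted p 7.04e-05), and Ehf, an epithelial ETS factor (-2.16 ± 0.56 SE, limma adjusted p 0.0144), had the lowest log2 fold changes of the list. The median of the tested genes was -0.85, against -0.16 over all genes. The following were named after their values had been seen. The gene that rose with the block was Tnfaip3 (1.47, limma adjusted p 0.000882). None of the NF-kB subunit genes was called, with log2 fold changes from -0.61 (Nfkb1) to -0.08 (Nfkb2).

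Of 35 other secreted defence and acute phase genes, 34 were found, 15 were tested, and 5 fell and 0 rose (7 fell with the block; median -0.89), against the same 3.56% of all genes lower (5.90% with the block): Lbp, which binds lipopolysaccharide (-3.16 ± 0.94 SE, limma adjusted p 0.0289), Wfdc3, another WAP domain gene (-3.01 ± 0.54 SE, limma adjusted p 0.00131), Chil1, a chitinase-like protein (-2.43 ± 0.62 SE, limma adjusted p 0.0135), and the acute phase genes Orm1 and Orm2 (-1.84 and -1.66). Orm1 and Orm2 are near copies and were named after their values had been seen. Reads that fit both equally were dropped. Of 28 iron genes 22 were tested and 3 fell, also with the block (median -0.09; the same shares of all genes apply): the metalloreductases Steap4 (-2.69 ± 0.69 SE, limma adjusted p 0.0132) and Steap3 (-1.80 ± 0.44 SE, limma adjusted p 0.0103), and the ferritin heavy chain Fth1 (-1.21 ± 0.35 SE, limma adjusted p 0.0255). With median-of-ratios scaling 2 of them were called. The transferrin receptor Tfrc, named after its value had been seen, had -0.19 ± 0.23 (SE). The ferritin light chain Ftl1, also named after its value had been seen, went the other way from Fth1. It was higher in 8 lines and lower in 1, from a median of 1114 to 1566 CPM. Its change of 0.47 ± 0.13 (SE; limma adjusted p 0.0231, 0.00427 with the block) was under the size limit of a call.

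Of 25 complement genes other than C3, 12 were tested (median -0.21), and against 3.56% of all genes lower and 1.86% higher 1 fell, the protease gene C1ra, which has the near copy C1rb (-1.67 ± 0.56 SE, limma adjusted p 0.0493), which was not called with median-of-ratios scaling, and 1 rose, clusterin (Clu), an inhibitor of the terminal complex, by 4.88 ± 0.80 (SE; limma adjusted p 0.000645), from a median of 55.0 to 2355 CPM. Of 10 other scavenger receptor genes 6 were tested and 0 were called (median 0.10). With Wnt3a, 0 genes of any of the 5 lists were called, against 0.0226% of all genes, and with the block 1 secreted defence gene and 3 signalling genes were lower, against 0.128% of all genes.

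**Figure D4:**
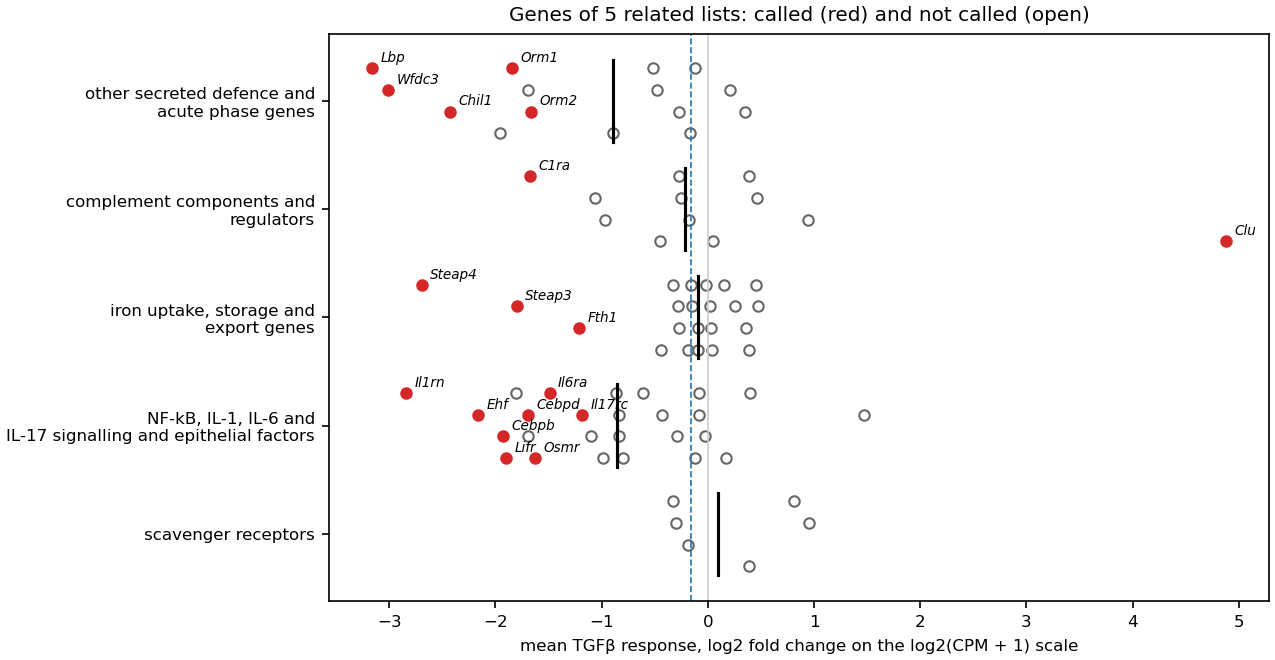
Mean TGFβ response (log2 fold change on the log2(CPM + 1) scale, x axis) of the tested genes of 5 related gene lists (y axis; the vertical place within a list has no meaning), with called genes in red and named and others open; black bars are list medians and the dashed line is the median of all genes tested (-0.16). Medians lay at -0.89 for secreted defence genes and -0.85 for signalling genes and epithelial factors, and near the dashed line for complement and iron genes.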

How the data were processed

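RNA of 9 MMTV-PyMT lines under 3 treatments was sequenced (27 libraries, 12 groups). The authors made stranded libraries from mRNA, mapped single-end reads with STAR on mm10, kept reads with 1 hit and counted them over RefSeq genes with QuasR. Strand use in counting is not given in the sources used here, so overlapping genes are uncertain. The deposited table held CPM values that the authors had not scaled further, with 24374 of 24454 Entrez identifiers matched to symbols. All values were whole multiples of 1 read (100% within 0.01), which gave the reads. Floors cover counting error only.

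The 13270 genes with at least 1 CPM in 2 libraries were fitted by limma (version 3.58.1, R 4.3.3) on the log2(CPM + 1) scale (12 group means, trend and robust settings, Benjamini-Hochberg adjustment, called at 0.05 and a log2 fold change of 1). Replicates were different cell lines. The number pairs the samples, since libraries of 1 line deviated together from their group means (correlation 0.509 to 0.94, 27 pairs). The alternatives tried were median-of-ratios scaling, a pseudocount of 0.1, testing without the filter, edgeR 4.0.16 on recovered reads, a replicate block (for genotype comparisons a random effect of cell line), averaging ΔHD2/- lines 2 and 3, leaving out each line, and no fold limit. Leaving out both lines low in Cdh1 was added after the data had been seen. The fit was tested on simulated data.

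The members and lists were chosen with earlier results of these data known. Named genes were the members, treatment targets (1 is not reported here), up to 3 called genes each way from each list, and the 3 genes most correlated with each member.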

Additional observations from a re-analysis of the deposited data

Results flagged for a closer look

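Without cytokine, the Lcn2 levels of lines lacking the floxed allele and of their fl lines were ordered in opposite ways in the 2 families. Both ΔHD1/- lines (1.54 and 0.0297 CPM) lay below both ΔHD1/fl lines (401 and 8.54 CPM), and all 3 ΔHD2/- lines (252, 213 and 332 CPM) lay above both ΔHD2/fl lines (16.5 and 17.3 CPM). The effect in ΔHD2 lines exceeded that in ΔHD1 lines by 9.13 on the log2 scale, and this difference was not tested. The share of all genes ordered in opposite ways was not counted. One line on each side of the ΔHD1 comparison was low in Cdh1 (0.522 and 0.237 CPM). Leaving out both was a setting chosen after the data had been seen. The log2 difference of Lcn2 was then -7.31 in ΔHD1 lines (1 line on each side) and 3.87 in ΔHD2 lines. In the main fit it was -5.26 and 3.87, and neither passed (limma adjusted p 0.423 and 0.364).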

How the results depend on the processing

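For the mean TGFβ response, 3 of the 7 members not chosen by their fall were called, 5 with a pseudocount of 0.1 (Ltf and Saa3 as well) and 1 to 3 when 1 line at a time was left out, with 1 without ΔHD2/fl line 1. In ΔHD1/- lines 1 was called, against 0 by edgeR, 2 with the replicate block and 0 to 2 without 1 line. With the replicate block 1 was called in ΔHD2/fl and 3 in ΔHD2/- lines in place of 0. Leaving out 1 line gave 0 to 1 for ΔHD1/fl, ΔHD2/fl and ΔHD2/- lines and for both genotype comparisons, which had 0, and leaving out both lines low in Cdh1 gave 1 (Lcn2) for each of these. The block gave 4 in place of 3 in the mean response (Wfdc2 as well) and changed no member count beyond those named. With a pseudocount of 0.1, 4.69% of all genes were called lower in the mean response. Calls among all genes moved as well without 1 line or without both lines low in Cdh1, and are given in the last paragraph.

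Some log2 fold changes that were not called turned sign. For Wnt3a, Saa3 was 0.59 in edgeR and -0.07 to 0.11 without 1 line. For ΔHD1/- against ΔHD1/fl lines, C3 was 0.00 with a pseudocount of 0.1, 0.07 with median-of-ratios scaling and -1.95 to 1.94 without 1 line, and Wfdc2 was -0.49 in edgeR, -0.67 without both lines low in Cdh1 and -2.47 to 6.20 without 1 line. Scara5 was -0.11 without both lines and -0.16 to 0.18 without 1 line, and Ltf was -1.53 to 0.36. For ΔHD2/- against ΔHD2/fl lines, Cp was 0.14 in edgeR, 0.10 with lines 2 and 3 averaged and -1.08 to 0.10 without 1 line, Slpi was -0.57 to 0.95 and Wfdc2 -0.02 to 1.56. Over the values of the 8 tested members in the mean TGFβ and Wnt3a responses and both genotype comparisons, with runs that leave out 1 line included and responses by genotype not, 461 kept direction and side of the threshold, 21 turned sign, 10 passed newly and 4 no longer passed. The causes were not tested.

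Among all genes, the calls for the mean TGFβ response numbered 719, against 1184 with the block and 2234 with no fold change limit, and 455 to 933 without 1 line. In ΔHD1/fl, ΔHD1/-, ΔHD2/fl and ΔHD2/- lines there were 28, 190, 38 and 107 calls, against 719, 1238, 695 and 800 with the block, 6, 70, 3 and 66 by edgeR, 12, 61, 14 and 6 with ΔHD2/- lines 2 and 3 averaged, and 324, 295, 171 and 257 without both lines low in Cdh1, a setting chosen after seeing the data. Without 1 line they were 11 to 169, 41 to 382, 7 to 131 and 1 to 247. ΔHD1/fl and ΔHD2/fl lines had 16 and 11 calls with a pseudocount of 0.1, and ΔHD2/fl lines 67 with no filter. For Wnt3a there were 3, against 32 with the block, 77 without both lines low in Cdh1, 5 with no filter or no fold change limit and 1 to 81 without 1 line. The genotype comparisons had 9 and 73, against 0 and 4 by edgeR, 5 and 52 with a pseudocount of 0.1, 14 and 88 with no filter, 5 and 28 with those lines averaged, 191 and 167 without both lines low in Cdh1, and 5 to 225 and 26 to 749 without 1 line. With median-of-ratios scaling the share of calls that were lower went from 65.6% to 49.8% in the mean TGFβ response, from 9 of 28 to 6 of 30 calls in ΔHD1/fl lines, and from 77.9% and 71.1% to 57.4% and 51.7% in ΔHD1/- and ΔHD2/fl lines. The interactions had 1 and 4, and 0 to 27 and 0 to 25 over all alternatives. Saa1 had at most 2 reads in a library, and whether depth or lack of expression sets this was not tested.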
